A study of Mus musculus with 15 samples.

Results

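Transcripts of 9 mouse genes that mark macrophages were described in whole ileum: the complement C1q subunit genes C1qa, C1qb and C1qc, and Cd68, Adgre1, Csf1r, Lyz2, Cd14 and Mrc1. They were taken by symbol from a deposited table of 25329 genes. All 9 were found, and all 9 were among the 11332 genes that reached 1 FPKM in 5 or more of the 15 libraries, which were the genes tested. FPKM is a read count scaled to gene length and library depth. The DHO group held 5 libraries of TAK1 IEC-KO Ripk1 D138N/D138N mice, which lack the kinase TAK1 in intestinal epithelial cells and carry on both copies of Ripk1 an allele whose RIPK1 protein has no kinase activity. The HO group held 5 libraries of TAK1 IEC-KO mice, and the WT group held 5 libraries of Tak1f/f mice, which carry the floxed alleles. All groups had received tamoxifen, at 80 mg/kg in 3 daily intraperitoneal doses, and ileum was taken 3 days after induction. The labels name neither the Cre driver nor the animals' age, and they give the Ripk1 allele with no limit to a tissue. The study asked what part RIPK1 kinase activity plays in the ileitis of mice without epithelial TAK1.

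C1q is the recognition part of the classical complement pathway. It is built from chains encoded by C1qa, C1qb and C1qc, binds antibody complexes and dying cells, and carries with it the proteases C1r and C1s. Most complement proteins of the blood come from the liver, but C1q is made mainly by tissue macrophages. Macrophages of the gut wall lie under the epithelium and in the muscle layers, are replaced to a large part from blood monocytes, clear dying cells and microbes, and depend on the receptor CSF1R, which binds the growth factors CSF1 and IL-34. CD68 is a glycoprotein of late endosomes and lysosomes, ADGRE1 is the F4/80 antigen of mature mouse macrophages, and MRC1 is the mannose receptor. CD14 binds bacterial lipopolysaccharide and passes it to TLR4, and lysozyme M, the product of Lyz2, cuts bacterial cell walls.

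The C1q genes lie together, and the others lie on 5 other chromosomes. In the mouse genome build GRCm38.p6, C1qb (chr4:136880126-136886200), C1qc (chr4:136889801-136892936) and C1qa (chr4:136895916-136898844) follow one another on the minus strand of chromosome 4 over 18719 bases, with gaps of 3600 and 2979 bases and no other RefSeq gene between them. Cd68 lies at chr11:69664213-69666170, Mrc1 at chr2:14229414-14332023 and Adgre1 at chr17:57358581-57483529. Lyz2 (chr10:117277541-117282272) lies next to its near-identical copy Lyz1 (chr10:117287795-117292868), which Paneth cells express.

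Promoter sequences from RefSeq (GRCm38.p6) were matched for 5 of the 9 genes. They are shown because the C1q transcripts varied together across libraries and because Lyz2 and Lyz1 are alike in sequence but differed in their changes. Each line runs 5′ to 3′ on the gene's strand over the 250 bases before the transcription start, less the bases of the C1qc window that lie inside the annotated gene. C1qb is at chr4:136886201-136886450, C1qc at chr4:136892937-136893164, Cd68 at chr11:69666171-69666420, Lyz2 at chr10:117282273-117282522 and Lyz1 at chr10:117292869-117293118, all on the minus strand. Mrc1 is at chr2:14229164-14229413 on the plus strand. Capitals mark matches, on either strand, to motifs of 3 factor families active in macrophages: GAGGAA of the ETS family, TGANTCA of AP-1 and TGCTGA of the MAF family.
C1qb: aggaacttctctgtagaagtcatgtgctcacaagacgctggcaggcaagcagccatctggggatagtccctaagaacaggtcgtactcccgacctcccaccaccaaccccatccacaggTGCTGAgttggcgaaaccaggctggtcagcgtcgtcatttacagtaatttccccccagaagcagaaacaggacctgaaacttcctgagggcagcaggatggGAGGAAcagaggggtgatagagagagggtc
C1qc: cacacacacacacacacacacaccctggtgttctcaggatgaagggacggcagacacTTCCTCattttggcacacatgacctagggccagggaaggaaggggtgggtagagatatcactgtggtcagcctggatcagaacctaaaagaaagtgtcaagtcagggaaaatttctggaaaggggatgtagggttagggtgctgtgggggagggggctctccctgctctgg
Cd68: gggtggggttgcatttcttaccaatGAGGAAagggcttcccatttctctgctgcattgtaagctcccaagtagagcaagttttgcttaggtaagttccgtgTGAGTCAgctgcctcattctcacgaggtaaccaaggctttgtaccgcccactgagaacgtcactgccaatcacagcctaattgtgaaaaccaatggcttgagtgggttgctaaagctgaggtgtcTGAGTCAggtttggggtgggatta
Mrc1: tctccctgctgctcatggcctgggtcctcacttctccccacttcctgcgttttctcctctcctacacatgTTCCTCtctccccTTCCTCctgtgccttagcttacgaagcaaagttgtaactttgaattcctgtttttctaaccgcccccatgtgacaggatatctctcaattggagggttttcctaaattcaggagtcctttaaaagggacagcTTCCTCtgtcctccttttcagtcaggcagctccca
Lyz2: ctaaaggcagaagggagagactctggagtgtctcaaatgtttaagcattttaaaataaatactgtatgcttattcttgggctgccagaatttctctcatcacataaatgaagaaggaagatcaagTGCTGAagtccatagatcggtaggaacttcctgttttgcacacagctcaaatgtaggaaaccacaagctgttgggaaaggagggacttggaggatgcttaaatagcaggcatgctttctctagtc
Lyz1: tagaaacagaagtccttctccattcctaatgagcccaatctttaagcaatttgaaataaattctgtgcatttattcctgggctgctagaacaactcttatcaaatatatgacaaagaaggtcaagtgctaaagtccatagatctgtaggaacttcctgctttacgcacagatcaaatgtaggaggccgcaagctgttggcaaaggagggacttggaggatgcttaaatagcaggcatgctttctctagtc
Among all 32851 promoters of the table, 23.3% held the ETS letters, 6.75% the AP-1 letters and 16.1% the MAF letters, and no matches overlapped in the sequences printed. C1qb held 1 ETS match and 1 MAF match, C1qc held 1 ETS match, Mrc1 held 3 ETS matches, and Cd68 held 1 ETS match and 2 AP-1 matches. The MAF match of Lyz2 was not in the letters of Lyz1, and these promoters were 83.6% identical over 244 aligned bases. A match is a string of letters and was not tested as a binding site.

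The libraries were even in depth, with 38724618 to 40589889 reads, and 6 stood apart by markers of a gut segment or of B cells. Map3k7, which encodes TAK1, averaged 9.23 ± 0.71 FPKM in DHO, 8.66 ± 1.04 in HO and 10.4 ± 0.803 in WT (SD, n = 5 each), and the whole-tissue level was slightly lower in HO than in WT by a log2 change of -0.24 (SE 0.094, adjusted p = 0.0419) and did not pass in DHO against WT, at -0.15 (SE 0.094, adjusted p = 0.962). Gata4, a transcription factor of the proximal small intestine, was at 18.0 FPKM or more in HO 1, DHO 3 and DHO 4 and at 0.529 or less in the other 12 libraries. Fabp6, the ileal bile acid binding protein gene, was at 0.0491 FPKM in HO 1. In DHO 3 (8871 FPKM) and DHO 4 (9781) it lay within the WT range of 6935 to 11847. It was below that range in HO 2 (1356), HO 3 (4089) and HO 4 (3359), and above it in HO 5 (12973). Ms4a1, a gene of B cells, stood at 7.04 FPKM or more in HO 2, HO 4 and DHO 1 and at 0.286 or less elsewhere. Within groups the closest libraries were DHO 3 with DHO 4 (a chi-square of their reads of 13.0 per gene) and WT 1 with WT 2 (16.2), well above the value of about 1 that sampling alone gives, so none was counted as a repeat of another. The labels do not say whether libraries came from separate animals, so p-values measure only the spread between these libraries.

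The 3 C1q transcripts fell in DHO against HO, and their higher mean in HO than in WT did not pass the test. Their summed level ran from 47.8 to 142 FPKM in DHO, from 91.6 to 332 in HO and from 83.1 to 163 in WT. In whole tissue, fewer macrophages and less C1q RNA in each macrophage cannot be told apart.

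C1qa, which encodes the A chain, stood, in libraries 1 to 5 of each group, at 36.5, 45.4, 19.6, 22.5 and 56.0 FPKM in DHO, 72.1, 85.0, 104, 145 and 37.7 in HO, and 46.0, 35.9, 55.1, 64.2 and 50.1 in WT. HO 1 to HO 4 thus lay above every WT library, HO 5 lay among the lowest WT libraries, and DHO 3 and DHO 4 lay below all others. The change in DHO against HO was -1.26 (SE 0.33, adjusted p = 0.00464) on the log2(FPKM + 1) scale, with means of 36.0 ± 15.3 FPKM in DHO and 88.7 ± 39.6 in HO (SD, n = 5 each). In HO against WT it was 0.70 (SE 0.33, adjusted p = 0.0803), with a WT mean of 50.3 ± 10.5 FPKM.

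C1qb, the B chain gene, stood at 22.3, 32.7, 12.6, 12.7 and 45.5 FPKM in DHO, 44.7, 60.7, 81.5, 94.6 and 24.8 in HO, and 29.0, 23.0, 45.3, 51.9 and 35.9 in WT, in the same order of libraries. As for C1qa, HO 4 was the highest of all libraries and HO 5 was close to the lowest WT library. DHO differed from HO by a log2 change of -1.28 (SE 0.39, adjusted p = 0.011), and HO from WT by 0.63 (SE 0.39, adjusted p = 0.178).

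C1qc, the C chain gene, stood at 25.2, 29.9, 15.6, 12.7 and 41.0 FPKM in DHO, 43.6, 57.7, 78.7, 93.0 and 29.1 in HO, and 27.2, 24.1, 41.5, 46.8 and 34.2 in WT. HO 4 was again the highest library and DHO 4 the lowest, and the DHO, HO and WT ranges overlapped. Its log2 change was -1.25 (SE 0.33, adjusted p = 0.00505) in DHO against HO and 0.71 (SE 0.33, adjusted p = 0.0808) in HO against WT.

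The 3 subunit transcripts kept a similar proportion across libraries. The ratio of C1qb to C1qa ran from 0.563 to 0.822 over the 15 libraries (median 0.659), and that of C1qc to C1qa from 0.566 to 0.797 (median 0.682). The C1qb to C1qa ratio averaged 0.671 ± 0.097 in DHO, 0.686 ± 0.065 in HO and 0.724 ± 0.0896 in WT, so the group means lay within 1 SD of one another. No stretch of 50 bases is shared between the subunit transcripts.

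Whether the C1q genes passed in HO against WT turned on which libraries were in the fit and on the scaling, and the size of the change varied with both and with the smooth muscle level. Without HO 5 all 3 passed, with C1qa at 0.97 (adjusted p = 0.0104), C1qb at 0.91 (adjusted p = 0.0426) and C1qc at 0.94 (adjusted p = 0.0201). Dividing FPKM by median-of-ratios factors moved the median change of all genes in HO against WT to 0.010 from -0.25, and the 3 genes then passed too, with C1qa at 1.02 (adjusted p = 0.0141), C1qb at 0.94 (adjusted p = 0.0435) and C1qc at 1.02 (adjusted p = 0.0125). C1qc alone also passed without HO 1, DHO 3 and DHO 4 (0.80, adjusted p = 0.0397) and with quantile normalization (0.85, adjusted p = 0.042). With the smooth muscle level as a covariate the changes in HO against WT were smaller and none passed, at 0.35 (adjusted p = 0.396) for C1qa, 0.11 (adjusted p = 0.812) for C1qb and 0.25 (adjusted p = 0.497) for C1qc. They were likewise smaller when HO 2, HO 4 and DHO 1 were omitted, at 0.40 (adjusted p = 0.392), 0.33 (adjusted p = 0.577) and 0.45 (adjusted p = 0.362) for these genes in turn.

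Without HO 2, HO 4 and DHO 1 the fall in DHO against HO passed for none of them, with C1qa at -0.99 (adjusted p = 0.0601), C1qb at -0.99 (adjusted p = 0.122) and C1qc at -1.03 (adjusted p = 0.0625). With HO 1, DHO 3 and DHO 4 left out, it passed for C1qc and not for C1qa (-0.87, adjusted p = 0.054) or C1qb (-0.84, adjusted p = 0.099).

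**Figure D1:**
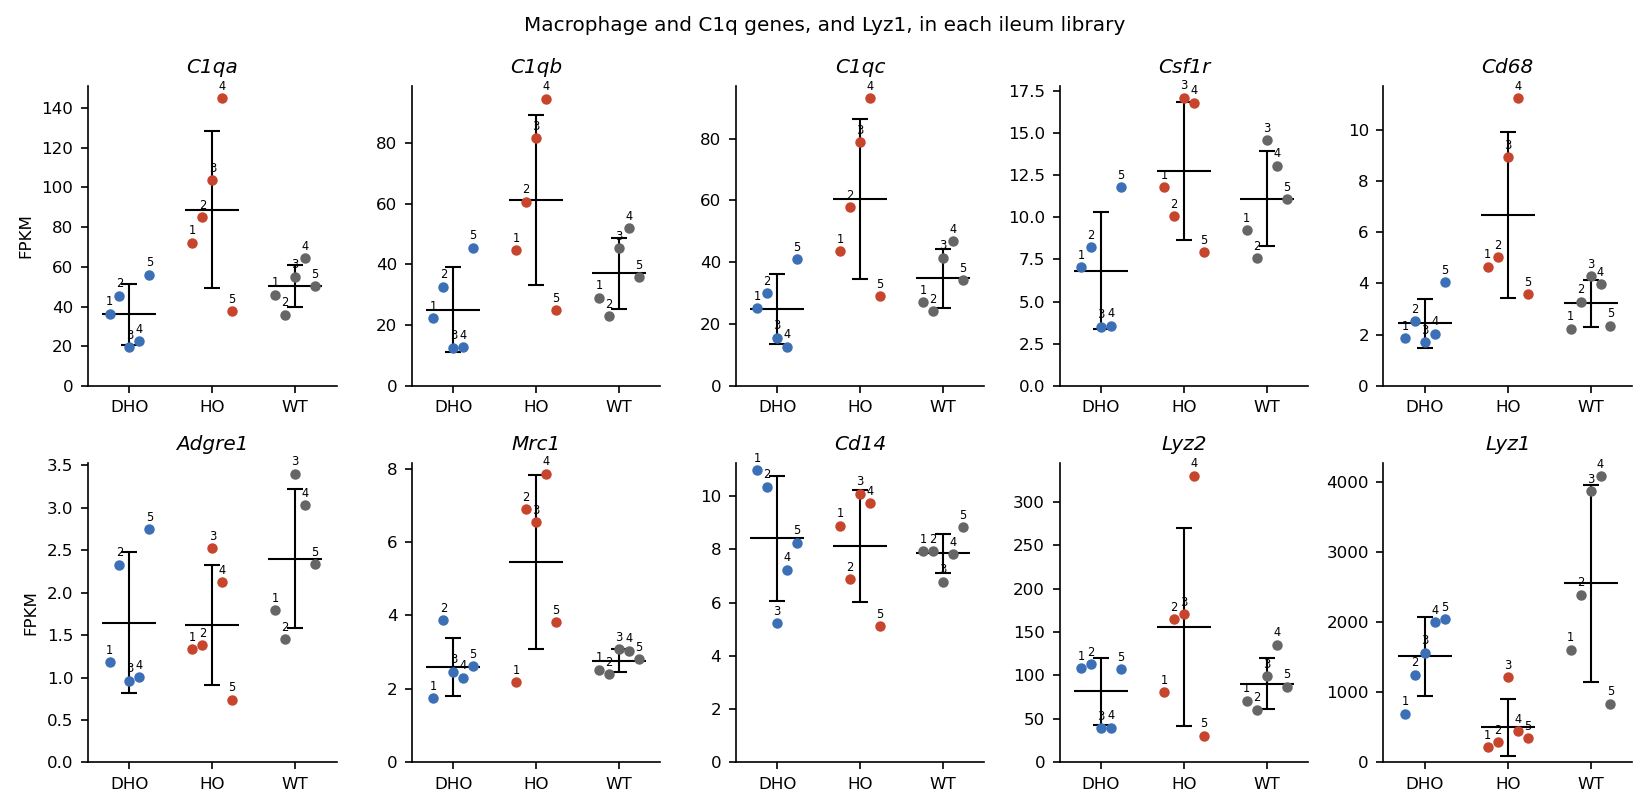
FPKM of each of the 9 genes and of Lyz1 in every library (points numbered 1 to 5 within a group), with the group mean and SD as bars, for DHO, HO and WT. HO 4 is the highest HO library for 6 of the 9 genes and HO 5 the lowest for 8, and for none of the 9 do 2 groups separate wholly.

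The receptor gene Csf1r (chr18:61105572-61131139) fell in DHO against HO. Its values were 7.03, 8.24, 3.52, 3.57 and 11.8 FPKM in DHO, 11.8, 10.0, 17.1, 16.8 and 7.91 in HO, and 9.22, 7.58, 14.6, 13.0 and 11.1 in WT. DHO 3 and DHO 4 held less than any other library, and DHO 2 and DHO 5 lay within the WT range. The means were 6.82 ± 3.47 FPKM in DHO, 12.7 ± 4.08 in HO and 11.1 ± 2.81 in WT. DHO differed from HO by a log2 change of -0.87 (SE 0.29, adjusted p = 0.0169), which became -0.44 (adjusted p = 0.188) without HO 1, DHO 3 and DHO 4 and -0.86 (adjusted p = 0.0823) without HO 2, HO 4 and DHO 1. In HO against WT the change was 0.16 (SE 0.29, adjusted p = 0.644).

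Cd68 rose in HO against WT and fell in DHO against HO. It was read at a low level, with 86 to 554 reads per library. The values were 1.87, 2.52, 1.71, 2.04 and 4.04 FPKM in DHO, 4.66, 5.02, 8.93, 11.2 and 3.57 in HO, and 2.24, 3.29, 4.28, 3.96 and 2.35 in WT. HO 1 to HO 4 stood above every DHO and WT library, and HO 5 lay among the WT values. The log2 change was 0.79 (SE 0.26, adjusted p = 0.0167) in HO against WT and -1.10 (SE 0.26, adjusted p = 0.00217) in DHO against HO. The call in HO against WT was lost without HO 2, HO 4 and DHO 1 (0.62, adjusted p = 0.0819) and with the smooth muscle level as a covariate (0.52, adjusted p = 0.105), while that in DHO against HO passed in every alternative run.

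Adgre1, the F4/80 gene, did not pass in any comparison. Its values were 1.18, 2.33, 0.965, 1.01 and 2.74 FPKM in DHO, 1.33, 1.38, 2.52, 2.12 and 0.74 in HO, and 1.79, 1.45, 3.40, 3.03 and 2.33 in WT, from 98 to 448 reads per library. The ranges of the groups lay over one another, and the highest values were those of WT 3 and WT 4. The log2 change was -0.39 (SE 0.23, adjusted p = 0.169) in HO against WT and 0.0028 (SE 0.23, adjusted p = 0.993) in DHO against HO. With the smooth muscle level as a covariate Adgre1 was lower in HO than in WT (-0.71, adjusted p = 0.0101).

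Mrc1, the mannose receptor gene, rose in HO against WT and fell in DHO against HO. It stood at 1.75, 3.86, 2.47, 2.30 and 2.61 FPKM in DHO, 2.18, 6.90, 6.54, 7.86 and 3.82 in HO, and 2.52, 2.40, 3.09, 3.04 and 2.81 in WT. The WT libraries were close to one another, and HO divided, with HO 2, HO 3 and HO 4 above all other libraries and HO 1 below every WT library. The log2 change was 0.69 (SE 0.23, adjusted p = 0.022) in HO against WT and -0.77 (SE 0.23, adjusted p = 0.0111) in DHO against HO. Without HO 2, HO 4 and DHO 1 neither passed, at 0.37 (adjusted p = 0.193) in HO against WT and -0.37 (adjusted p = 0.227) in DHO against HO. In HO against WT Mrc1 also failed to pass without HO 2 (0.59, adjusted p = 0.0592), HO 3 (0.61, adjusted p = 0.053) or HO 4 (0.55, adjusted p = 0.0608) alone, and with the smooth muscle covariate (0.35, adjusted p = 0.161).

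Cd14 (chr18:36725064-36726815), the lipopolysaccharide co-receptor gene, had close means in the 3 groups. It stood at 11.0, 10.3, 5.24, 7.24 and 8.25 FPKM in DHO, 8.89, 6.88, 10.1, 9.72 and 5.10 in HO, and 7.93, 7.93, 6.78, 7.81 and 8.84 in WT. The means of 8.41 ± 2.33 FPKM in DHO, 8.14 ± 2.10 in HO and 7.86 ± 0.732 in WT differed by less than the SD of any of the groups. Neither log2 change passed, at 0.014 (SE 0.18, adjusted p = 0.951) in HO against WT and 0.038 (SE 0.18, adjusted p = 0.873) in DHO against HO.

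Lyz2, the most abundant of the 9 per length, had the largest standard error among them. Its values were 109, 113, 39.2, 39.8 and 108 FPKM in DHO, 81.2, 165, 170.2, 330.1 and 30.7 in HO, and 71.0, 60.8, 98.9, 136 and 87.3 in WT. Both the highest and the lowest library of all were HO libraries, HO 4 and HO 5. Neither HO against WT (0.44, SE 0.51, adjusted p = 0.478) nor DHO against HO (-0.69, SE 0.51, adjusted p = 0.263) passed, and without HO 5 Lyz2 passed in DHO against HO (-1.17, adjusted p = 0.0259).

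The Paneth cell lysozyme gene Lyz1 fell in HO against WT and rose in DHO against HO. It stood at 695, 1253, 1566, 2002 and 2043 FPKM in DHO, 216, 287, 1218, 444 and 341 in HO, and 1605, 2392, 3863, 4075 and 837 in WT. HO 1, HO 2, HO 4 and HO 5 lay below every other library, and HO 3 lay among the DHO libraries. The log2 change was -2.42 (SE 0.49, adjusted p = 0.000808) in HO against WT and 1.78 (SE 0.49, adjusted p = 0.00606) in DHO against HO, the second of which was lost without HO 1, DHO 3 and DHO 4 (1.33, adjusted p = 0.0748). The Lyz2 and Lyz1 transcripts were 96% identical over 1262 aligned bases, and 195 of the 1267 stretches of 50 bases in Lyz2 (15.4%) were also found in Lyz1. How reads that match both genes were counted is not given in the sources used here, so the split of reads between Lyz2 and Lyz1 is uncertain.

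Set against all genes, the calls among the 9 ran against the prevailing direction. In HO against WT, 2 of the 9 were called higher and none lower, where 12.4% of all genes tested were called higher and 42.9% lower. The median change was 0.63 for the 9 and -0.25 for all genes. Of the 9, 4 had an unadjusted p under 0.05, while 6273 of the 11332 genes tested passed even after adjustment. In DHO against HO, 6 of the 9 were called lower and none higher, where 13.4% of all genes were called lower and 42.8% higher, with medians of -0.87 for the 9 and 0.25 for all genes. Median-of-ratios scaling evened out the background, to 2805 genes higher and 2640 lower in HO against WT and 2797 higher and 2934 lower in DHO against HO, and then called 5 and 6 of the 9. These comparisons share the HO libraries, so they are not independent of one another.

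In DHO against WT none of the 9 passed limma's test, with FPKM or with recovered reads (limma-voom), where 0.0794% of all genes were called higher and 0.159% lower. Csf1r alone had an unadjusted p under 0.05, at a log2 change of -0.71 (SE 0.29, adjusted p = 0.629), and the log2 changes of C1qa, C1qb and C1qc were -0.55, -0.65 and -0.54. Those of the others were -0.31 for Cd68, -0.38 for Adgre1, -0.25 for Lyz2, -0.088 for Mrc1 and 0.053 for Cd14. The median of the 9 was -0.38, against 0.0017 for all genes. For none of the 9 did the 5 libraries of a group lie wholly to one side of another group's, although they did for 36.0% of all genes in HO against WT, for 33.3% in DHO against HO and for 4.4% in DHO against WT.

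**Figure D2:**
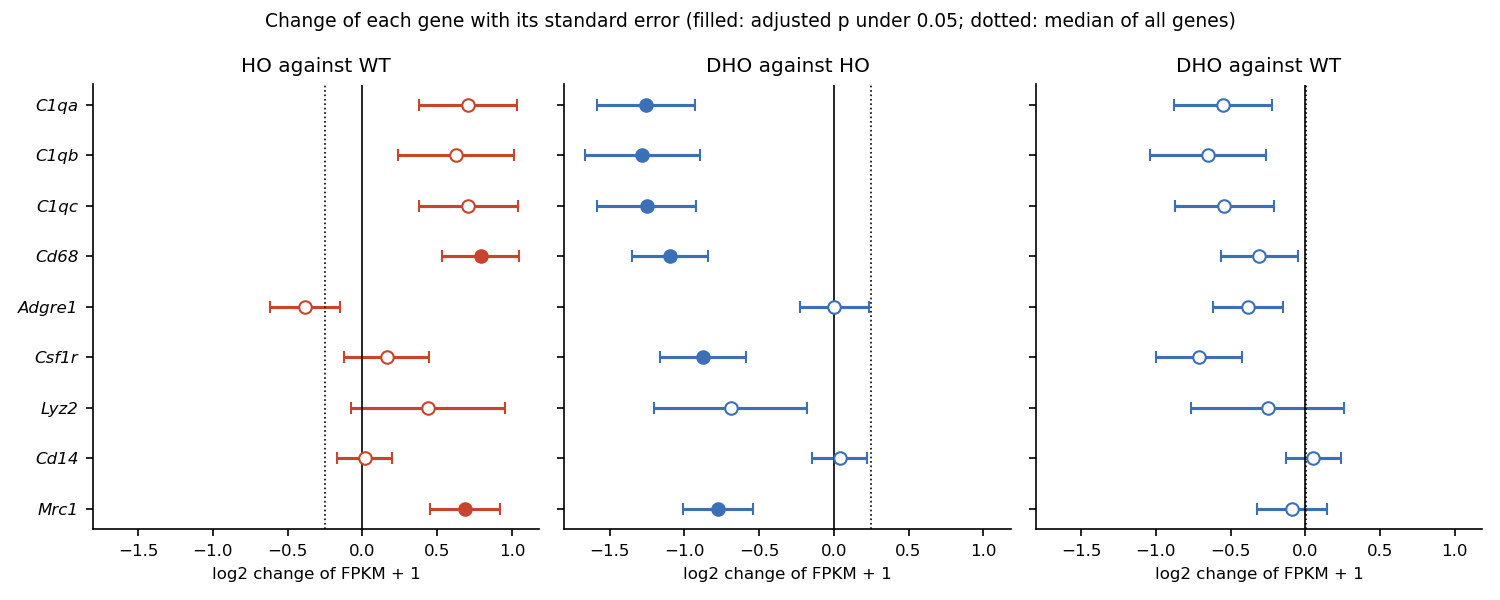
Change of each of the 9 genes (log2 of FPKM + 1) with its standard error, in HO against WT, DHO against HO and DHO against WT. Filled points passed at an adjusted p under 0.05 (Cd68 and Mrc1 in the first panel, 6 genes in the second, none in the third), and the dotted line is the median change of all genes tested.

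Ratios to Csf1r within a library, which no scaling of that library can alter, differed between groups for some of the genes. For the 8 other genes these ratios were compared between groups in 24 exact two-sided permutation tests, of which 10 had an unadjusted p under 0.05. The tests all share Csf1r as denominator, so they are not independent of one another. They were not run for all genes, so no share over all genes stands beside the 10. Csf1r changed by 0.16 in HO against WT, -0.87 in DHO against HO and -0.71 in DHO against WT. The medians of all genes were -0.25, 0.25 and 0.0017 in turn. A gene that followed these medians had a ratio to Csf1r that fell in HO against WT and rose in the other comparisons. With 5 libraries against 5 the smallest p that the test allows is 0.00794.

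The F4/80 gene was lower relative to Csf1r in HO than in the other groups. The ratio of Adgre1 to Csf1r was 0.168 to 0.283 in DHO, 0.0935 to 0.148 in HO and 0.191 to 0.234 in WT. All HO libraries thus lay below all WT libraries (0.576 times the WT ratio, exact permutation p = 0.00794) and below all DHO libraries (2.00 times as high in DHO as in HO, exact permutation p = 0.00794). DHO and WT overlapped (1.15 times the WT ratio, exact permutation p = 0.222). The directions in HO against WT and in DHO against HO were those of a gene that followed the median of all genes. Without either set of 3 libraries the DHO to HO difference had an exact permutation p of 0.0571, the smallest that 4 against 3 libraries allow.

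For C1qa, C1qc and Cd68 the ratio to Csf1r was higher in HO than in WT. The ratio of C1qc to Csf1r was 3.68 to 5.75 in HO and 2.85 to 3.58 in WT, so that all HO libraries lay above all WT libraries (1.46 times, exact permutation p = 0.00794). C1qa (1.45 times, exact permutation p = 0.0238) and Cd68 (1.73 times, exact permutation p = 0.0159) had overlapping ranges. C1qb (1.38 times, exact permutation p = 0.0714) and Mrc1 (1.59 times, exact permutation p = 0.0714) did not pass, nor did Lyz2 or Cd14. C1qb did pass without HO 5 (exact permutation p = 0.0317) or WT 4 (exact permutation p = 0.0476), and Mrc1 without HO 1, alone or with DHO 3 and DHO 4 (exact permutation p = 0.0159). Without HO 2, HO 4 and DHO 1 the C1qc and Adgre1 ratios passed and those of C1qa and Cd68 did not (exact permutation p of 0.107 and 0.0714).

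In DHO the ratios of C1qa (1.19 times the WT ratio, exact permutation p = 0.0238), C1qc (1.19 times, 0.0317), Lyz2 (1.48 times, 0.0159) and Cd14 (1.83 times, 0.0397) to Csf1r were above those of WT, and none of the 8 passed there without HO 1, DHO 3 and DHO 4. All 8 ratios were above WT (1.10 to 1.83 times) and share the same denominator, so they are not separate results. Csf1r had the largest fall of the 9 genes there (log2 change -0.71). C1qa (-0.55), C1qc (-0.54) and Lyz2 (-0.25) were themselves lower in DHO than in WT, Cd14 was at 0.053, and none passed. The ratio of Cd14 to Csf1r was 0.700 to 2.03 in DHO, 0.579 to 0.754 in HO and 0.466 to 1.05 in WT, and it was 2.05 times as high in DHO as in HO (exact permutation p = 0.0159). DHO 5 lay within the HO range, and the other DHO libraries lay above all HO libraries. This higher Cd14 ratio had the direction of a gene that followed the median of all genes. The C1q and Cd68 ratios of DHO were 0.759 to 0.819 times those of HO and did not pass, at exact permutation p-values of 0.0556 for C1qc and 0.135 to 0.159 for the others.

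**Figure D3:**
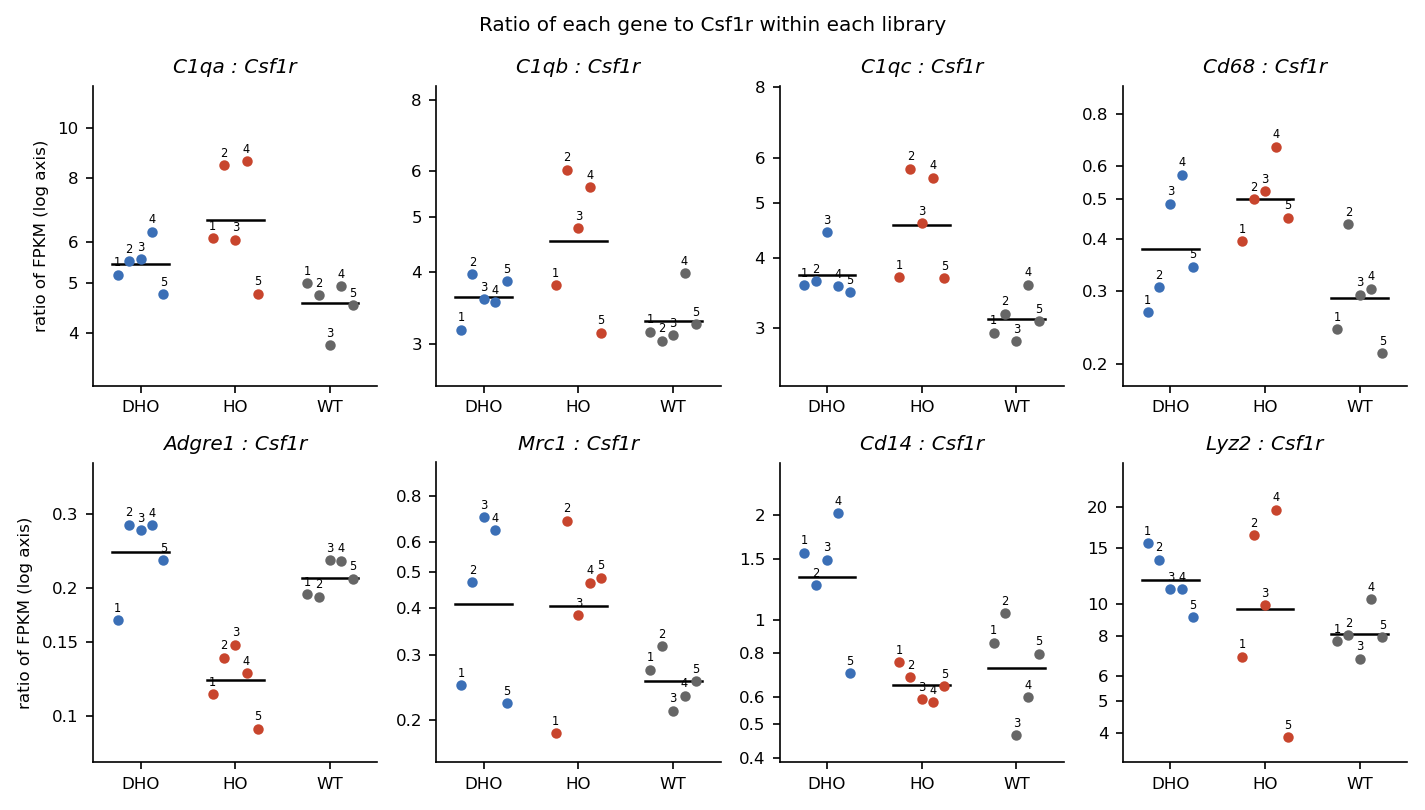
Ratio of the FPKM of 8 genes to that of Csf1r in each library, on a log axis, for DHO, HO and WT, with points numbered 1 to 5 within a group and the bar at the geometric mean. For Adgre1 every HO library (0.0935 to 0.148) lies below every DHO and WT library, and for C1qc every HO library lies above every WT library.

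Across the 15 libraries some of the genes followed C1q closely and others loosely. With the mean of the scaled log2(FPKM + 1) of C1qa, C1qb and C1qc, Pearson's r was 0.93 for Csf1r, 0.90 for Cd68, 0.87 for Lyz2, 0.74 for Mrc1, 0.58 for Adgre1 and 0.43 for Cd14. The points share the libraries' depth, gut segment and genotype, so these values are a description. The 8 genes outside the 9 that were most like C1q by this measure were Tlr13 (0.98), Mpeg1 (0.98), F2r (0.97), Ms4a6c (0.97), Lair1 (0.96), Fcgr3 (0.96), Pld4 (0.96) and Lpcat2 (0.96). Tlr13 encodes an endosomal sensor of bacterial ribosomal RNA and averaged 0.547 FPKM in DHO, 1.58 in HO and 0.949 in WT. Mpeg1 encodes perforin-2, a pore-forming protein of macrophages, and averaged 9.34 FPKM in DHO, 23.8 in HO and 15.2 in WT.

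The growth factors that bind CSF1R rose in HO against WT and fell in DHO against HO. Csf1 averaged 1.41 ± 0.488 FPKM in DHO, 3.05 ± 0.678 in HO and 1.61 ± 0.58 in WT, with a log2 change of 0.65 in HO against WT (adjusted p = 0.00482) and -0.75 in DHO against HO (adjusted p = 0.00169). Il34, the other ligand, averaged 0.952 ± 0.265 FPKM in DHO, 2.83 ± 0.959 in HO and 1.64 ± 0.305 in WT, with a log2 change of 0.50 in HO against WT (adjusted p = 0.0202) and -0.94 in DHO against HO (adjusted p = 0.000300). The call of Il34 in HO against WT was lost without HO 4 (0.40, adjusted p = 0.0559).

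Transcription factor genes of the myeloid lineage went both ways. Spi1, which encodes PU.1, an ETS factor that sets up the macrophage programme, had a log2 change of 0.74 in HO against WT (adjusted p = 0.0445) and -0.99 in DHO against HO (adjusted p = 0.0102). Its call in HO against WT was lost without any 1 of DHO 2, HO 1, HO 2, HO 3, HO 4, WT 1, WT 2, WT 4 and WT 5, at an adjusted p of 0.0524 to 0.12. That call was also lost with a pseudocount of 0.1 (adjusted p = 0.0576) or 0.01 (adjusted p = 0.0599) and without the filter on low values (adjusted p = 0.0906). Limma-voom on the recovered reads (adjusted p = 0.0647) and a fit of only these groups (adjusted p = 0.0554) ended it too. Cebpb changed by 1.59 in HO against WT and -1.39 in DHO against HO (SE 0.25), and Runx1 by 0.68 in HO against WT and -0.73 in DHO against HO (SE 0.13). Cebpa, whose factor acts in myeloid precursors and in epithelium, ran opposite, at -1.32 in HO against WT and 1.26 in DHO against HO (SE 0.19). These factors were listed together with the CSF1R ligand genes Csf1 and Il34 and with Csf2, Csf2ra and Csf2rb. Of the 13 listed 12 were tested, with 6 higher and 1 lower in HO against WT (median 0.50), and 1 higher and 7 lower in DHO against HO (median -0.70). Csf1 and Il34 were among the 6 and among the 7. Over all genes tested, 12.4% were called higher and 42.9% lower in HO against WT. In DHO against HO the shares were 42.8% higher and 13.4% lower, and these shares stand beside every list count here and below. Without Runx1, which reached 1 FPKM in fewer than 5 libraries outside HO, the counts were 5 higher and 1 lower in HO against WT (median 0.50), and 1 higher and 6 lower in DHO against HO (median -0.67).

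The calls among other mononuclear phagocyte markers had the directions of Cd68 and Mrc1. Of 25 listed 17 were tested, with 4 higher and 0 lower in HO against WT (median 0.45), and 0 higher and 7 lower in DHO against HO (median -0.89). Fcer1g, the signalling chain of Fc receptors, averaged 9.24 ± 3.12 FPKM in DHO, 32.4 ± 10.6 in HO and 15.4 ± 1.93 in WT, with a log2 change of 0.96 in HO against WT (adjusted p = 0.00346) and -1.69 in DHO against HO (adjusted p = 4.88e-05). Fcgr3, an antibody receptor gene, changed by 0.93 in HO against WT (adjusted p = 0.0249) and -1.44 in DHO against HO (adjusted p = 0.00169), of which the first was lost without HO 3 (0.80, adjusted p = 0.0613), HO 4 (0.74, adjusted p = 0.0698) or WT 2 (0.82, adjusted p = 0.0621). Laptm5, a lysosomal membrane protein gene of blood cells, fell in DHO against HO (-1.25, adjusted p = 0.00108). Aif1 in HO against WT did not pass (0.55, adjusted p = 0.069), but passed without HO 5 (0.74, adjusted p = 0.0128). With FPKM divided by median-of-ratios factors, 10 of the 17 were higher in HO against WT and 11 lower in DHO against HO. In HO against WT the counts were 2 higher and 1 lower with the smooth muscle covariate, and 1 higher and 0 lower without HO 2, HO 4 and DHO 1.

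Transcripts listed for monocytes had a larger median change than those markers. Of 17 listed 6 were tested, with 5 higher and 0 lower in HO against WT (median 1.42), and 0 higher and 6 lower in DHO against HO (median -1.35). The matrix protein gene Thbs1 averaged 3.47 ± 1.32 FPKM in DHO, 36.0 ± 13.6 in HO and 3.98 ± 0.968 in WT, with a log2 change of 2.84 in HO against WT and -3.02 in DHO against HO (SE 0.24). Fn1, which encodes fibronectin, changed by 1.65 in HO against WT and -1.54 in DHO against HO (SE 0.34), and Fcgr4, an antibody receptor gene, by 1.47 in HO against WT and -2.07 in DHO against HO (SE 0.38). Plac8 changed by 0.57 in HO against WT and -0.53 in DHO against HO (SE 0.11). Ly6c2, which marks blood-derived monocytes, was at 0.86 in HO against WT (adjusted p = 0.051), passed there without HO 5 (1.26, adjusted p = 0.000304), and fell in DHO against HO (-1.16, adjusted p = 0.0115). Stromal cells also express Thbs1 and Fn1, and gut epithelium also expresses Plac8 and Ace, so these do not mark monocytes alone in this tissue.

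**Figure D4:**
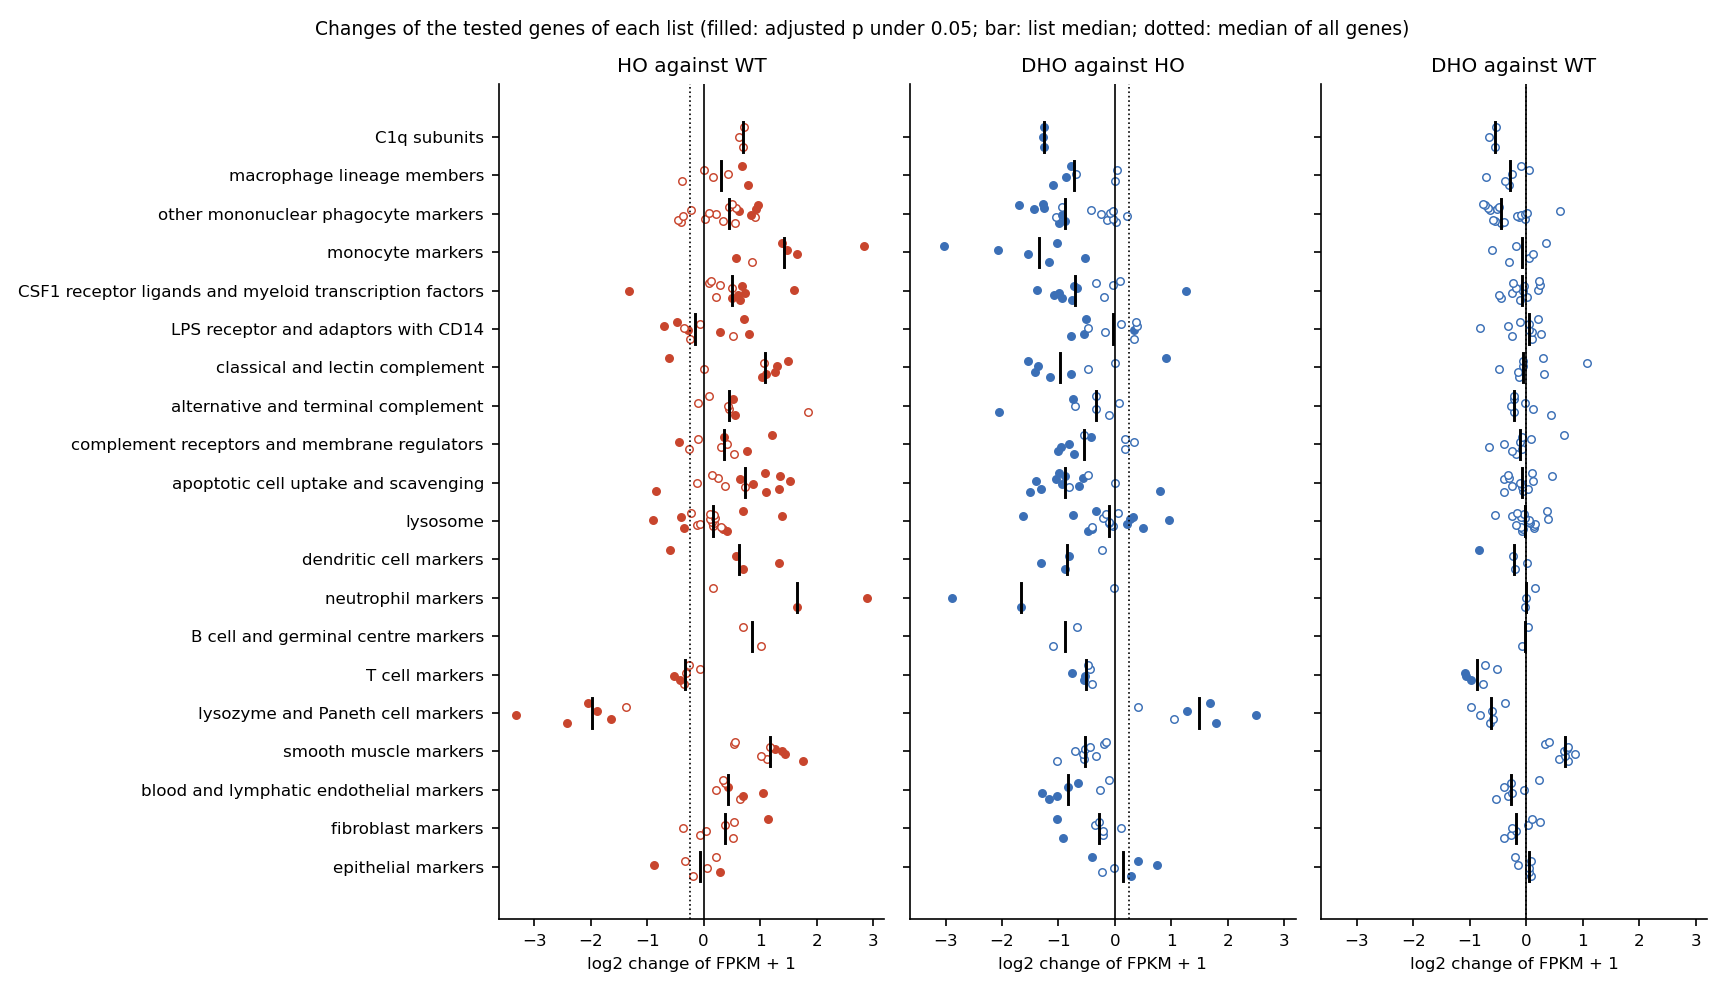
Changes (log2 of FPKM + 1) of the tested genes of each list in HO against WT, DHO against HO and DHO against WT, as points filled where the adjusted p was under 0.05, with a bar at the list median and a dotted line at the median of all genes. The classical and lectin complement list has a median of 1.09 in HO against WT and -0.97 in DHO against HO.

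Several proteases and regulators that work with C1q rose in HO against WT. Of 14 listed 8 were tested, with 5 higher and 1 lower in HO against WT (median 1.09), and 1 higher and 5 lower in DHO against HO (median -0.97). Without C1rb, which reached 1 FPKM in fewer than 5 libraries outside HO, the counts were 4 higher and 1 lower in HO against WT (median 1.08), and 1 higher and 4 lower in DHO against HO (median -1.16). Serping1, the inhibitor of C1r and C1s, averaged 22.2 ± 5.85 FPKM in DHO, 70.0 ± 29.1 in HO and 24.1 ± 10.0 in WT, with a log2 change of 1.49 in HO against WT and -1.54 in DHO against HO (SE 0.31). C4b changed by 1.30 in HO against WT and -1.36 in DHO against HO (SE 0.29), the protease gene C1s1 by 1.27 in HO against WT and -1.42 in DHO against HO (SE 0.33), and C1ra by 1.04 in HO against WT and -1.16 in DHO against HO (SE 0.27). C4bp, whose product takes part in breaking down C4b, ran opposite, at -0.61 in HO against WT and 0.91 in DHO against HO (SE 0.20), and its call in HO against WT was lost without WT 4 (-0.46, adjusted p = 0.0517). C3, the central complement gene, did not pass in HO against WT (1.08, SE 0.58, adjusted p = 0.124), but did without WT 3 (1.48, adjusted p = 0.0371) or WT 4 (1.44, adjusted p = 0.0456). C1ra, C1s1 and C4b each have a near-identical copy, so their reads may be split between copies.

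The alternative and terminal pathways had fewer calls. Of 12 listed 7 were tested, with 2 higher and 0 lower in HO against WT (median 0.46), and 0 higher and 2 lower in DHO against HO (median -0.34). Without Cfd and C6, each of which reached 1 FPKM in fewer than 5 libraries outside HO, the counts were 1 higher and 0 lower in HO against WT (median 0.43), and 0 higher and 0 lower in DHO against HO (median -0.33). Factor B, encoded by Cfb, forms the alternative C3 convertase, and Cfb rose in HO against WT (0.55, SE 0.11). C6, of the membrane attack complex, changed by 0.52 in HO against WT and -0.74 in DHO against HO (SE 0.16). Cfd, the factor D gene, was at 1.85 in HO against WT (adjusted p = 0.058) and at -2.06 in DHO against HO (adjusted p = 0.0366). The second was lost without any 1 of DHO 1, DHO 2, DHO 3, DHO 4, HO 1, HO 3 and HO 5, at an adjusted p of 0.0517 to 0.0998, and the first passed without HO 2 (2.44, adjusted p = 0.0135), WT 3 (2.39, adjusted p = 0.0178) or DHO 5 (1.85, adjusted p = 0.0433).

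Receptors and membrane regulators of complement divided. Of 12 listed 9 were tested, with 3 higher and 1 lower in HO against WT (median 0.36), and 0 higher and 5 lower in DHO against HO (median -0.54). Without C5ar1, which reached 1 FPKM in fewer than 5 libraries outside HO, the counts were 2 higher and 1 lower in HO against WT (median 0.33), and 0 higher and 4 lower in DHO against HO (median -0.48). C5ar1, the receptor of the chemoattractant C5a, changed by 0.77 in HO against WT (adjusted p = 0.00748) and -1.01 in DHO against HO (adjusted p = 0.00112). Cd59a (1.21, SE 0.38) and Cd55 (0.36, SE 0.12), whose products protect cells from complement, rose in HO against WT. Calr, an endoplasmic reticulum chaperone gene, fell there (-0.45, adjusted p = 0.0232), but not without HO 2 (-0.32, adjusted p = 0.061) or WT 3 (-0.41, adjusted p = 0.0552), nor with median-of-ratios scaling (-0.13, adjusted p = 0.519). Cd93 (-0.81, SE 0.20) and Itgb2 (-0.96, SE 0.24), a chain of a complement receptor, fell in DHO against HO. With median-of-ratios scaling 5 rose and none fell in HO against WT.

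The partners of CD14 in lipopolysaccharide sensing showed no common direction. Of 13 listed 10 were tested, with 3 higher and 3 lower in HO against WT (median -0.15), and 1 higher and 3 lower in DHO against HO (median -0.037). Without Tlr2, which reached 1 FPKM in fewer than 5 libraries outside HO, the counts were 3 higher and 3 lower in HO against WT (median -0.065), and 1 higher and 3 lower in DHO against HO (median 0.11). The adaptor gene Myd88 changed by 0.80 in HO against WT and -0.55 in DHO against HO (SE 0.17). Traf6, a ubiquitin ligase gene downstream of it, changed by 0.72 in HO against WT and -0.51 in DHO against HO (SE 0.18), and its call in DHO against HO was lost without DHO 4 (-0.47, adjusted p = 0.0505), HO 4 (-0.41, adjusted p = 0.0622) or HO 5 (-0.39, adjusted p = 0.0559). Tlr1, a receptor of bacterial lipopeptides, fell in HO against WT (-0.71, SE 0.18). Ticam1, an adaptor gene of TLR4, rose in DHO against HO (0.33, adjusted p = 0.00725), but not with median-of-ratios scaling (0.026, adjusted p = 0.87). Lbp, which delivers lipopolysaccharide to CD14, fell in DHO against HO (-0.77, adjusted p = 0.00651). With median-of-ratios scaling the counts became 4 higher and 1 lower in HO against WT, and 0 higher and 5 lower in DHO against HO. The receptor gene Tlr4 itself was below the filter.

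Genes for the uptake of dying cells and for scavenging had calls in both directions. Of 16 listed 13 were tested, with 7 higher and 1 lower in HO against WT (median 0.74), and 1 higher and 9 lower in DHO against HO (median -0.89). Without Msr1, Dock2 and Cd300lf, each of which reached 1 FPKM in fewer than 5 libraries outside HO, the counts were 5 higher and 1 lower in HO against WT (median 0.81), and 1 higher and 7 lower in DHO against HO (median -0.85). Elmo1, an engulfment adaptor gene, changed by 1.35 in HO against WT and -0.89 in DHO against HO (SE 0.15), and Cd300lf, a phosphatidylserine receptor gene, by 1.08 in HO against WT and -0.99 in DHO against HO (SE 0.14). Pros1, whose product bridges dying cells to TAM receptors, changed by 1.34 in HO against WT and -1.31 in DHO against HO (SE 0.22). Gas6, the other bridging ligand, ran opposite, at -0.85 in HO against WT and 0.80 in DHO against HO (SE 0.23).

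Lysosomal genes, which many cell types share, divided. Of 18 listed 18 were tested, with 4 higher and 3 lower in HO against WT (median 0.16), and 5 higher and 5 lower in DHO against HO (median -0.11). Of all genes tested, 12.4% were called higher and 42.9% lower in HO against WT, and 42.8% higher and 13.4% lower in DHO against HO. Without Gpnmb, which reached 1 FPKM in fewer than 5 libraries outside HO, the counts were 4 higher and 3 lower in HO against WT (median 0.15), and 5 higher and 4 lower in DHO against HO (median -0.10). The protease gene Lgmn averaged 59.2 ± 16.1 FPKM in DHO, 195 ± 72.9 in HO and 69.0 ± 5.14 in WT, with a log2 change of 1.38 in HO against WT and -1.64 in DHO against HO (SE 0.26). Ctsb, the cathepsin B gene, changed by 0.35 in HO against WT and -0.41 in DHO against HO (SE 0.070), and Lipa, the lysosomal lipase gene, rose in HO against WT (0.70, SE 0.12). Hexa, a hexosaminidase gene, went the other way, at -0.90 in HO against WT and 0.95 in DHO against HO (SE 0.12). With median-of-ratios scaling the counts were 11 higher and 1 lower in HO against WT, and 1 higher and 12 lower in DHO against HO.

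Counts of calls in these lists also moved without the libraries that stand apart and with the smooth muscle covariate, and those that moved by over 1.5 times follow. Without HO 2, HO 4 and DHO 1 there were, in HO against WT, 2 higher and 1 lower for CD14 partners, 4 higher and 0 lower for classical and lectin complement and 1 higher and 0 lower for complement receptors and regulators. In DHO against HO the same omission gave 0 higher and 1 lower for CD14 partners, 0 higher and 9 lower for uptake genes and 2 higher and 3 lower for lysosomal genes. The smooth muscle covariate gave 1 higher and 0 lower for alternative and terminal complement and 1 higher and 0 lower for complement receptors and regulators in HO against WT. In DHO against HO it gave 3 higher and 3 lower for CD14 partners and 0 higher and 1 lower for alternative and terminal complement. Omitting HO 1, DHO 3 and DHO 4 gave 3 higher and 2 lower for complement receptors and regulators in HO against WT. In DHO against HO that omission gave 3 higher and 3 lower for CD14 partners, 0 higher and 1 lower for alternative and terminal complement, 1 higher and 3 lower for complement receptors and regulators and 5 higher and 3 lower for lysosomal genes.

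Of the calls given by name above from these lists, those lost without HO 2, HO 4 and DHO 1 were C1ra, C4bp, C6, Calr, Cd55, Cd59a, Fcgr3, Il34 and Spi1 (adjusted p = 0.0515 to 0.178) in HO against WT and Gas6, Lbp, Ly6c2, Spi1, Ticam1 and Traf6 (adjusted p = 0.0531 to 0.206) in DHO against HO. Without HO 1, DHO 3 and DHO 4 they were Il34 and Spi1 (adjusted p = 0.0557 to 0.0615) in HO against WT and Cd93, Cfd, Ly6c2 and Spi1 (adjusted p = 0.052 to 0.175) in DHO against HO. The smooth muscle covariate ended those of C5ar1, C6, Calr, Cd55, Fcgr3, Il34 and Spi1 (adjusted p = 0.0502 to 0.167) in HO against WT and Cfd (adjusted p = 0.069) in DHO against HO. In DHO against WT none of the 78 genes tested in these phagocyte, complement, uptake and lysosome lists passed limma's test. Of all genes tested, only 0.0794% were called higher and 0.159% lower there. Of the 78, 13 had an unadjusted p under 0.05, and the share of all genes at that level is not given here. With limma-voom on the recovered reads 0 passed.

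Markers of other cells also differed between these libraries, and their part in the results above was not tested. Neutrophil markers, of which 12 of 13 were found, summed to 1.23 to 3.53 FPKM in DHO, 3.70 to 34.1 in HO and 2.05 to 2.84 in WT, and 1 was at 0 in every DHO library, 1 in every HO library and 2 in every WT library. Of the 3 tested, Ly6g (2.89 in HO against WT and -2.89 in DHO against HO, SE 0.51) and S100a8 (1.65 in HO against WT and -1.66 in DHO against HO, SE 0.38) rose in HO against WT and fell in DHO against HO, and both reached the filter through HO libraries. Dendritic cell markers summed to 4.81 to 7.09 FPKM in DHO, 5.51 to 24.6 in HO and 8.36 to 9.70 in WT. Of their 4 tested, 3 were higher and 1 lower in HO against WT, 3 were lower in DHO against HO and 1 in DHO against WT. Ccr7, among the 3, reached the filter through HO libraries, and the number higher in HO against WT was 1 without HO 2, HO 4 and DHO 1 or with the smooth muscle covariate.

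B cell markers summed to 3.63 to 61.6 FPKM in DHO, 4.50 to 132 in HO and 6.98 to 8.90 in WT, with the high values in DHO 1, HO 2 and HO 4, and neither of the 2 tested passed. HO 4, the highest HO library for 6 of the 9 genes, also held the highest B cell sum and the highest smooth muscle sum (2286 FPKM). T cell markers summed to 15.0 to 22.6 FPKM in DHO, 20.4 to 51.7 in HO and 31.4 to 43.1 in WT. Of the 6 tested, Cd3e (-0.42, SE 0.14) and Cd3g (-0.53, SE 0.17) fell in HO against WT, though not with median-of-ratios scaling, and Cd3e (-0.55), Cd3g (-0.54) and Cd8a (-0.77) fell in DHO against HO. These 3 also fell in DHO against WT, at -0.97, -1.07 and -1.07 for Cd3e, Cd3g and Cd8a. The last was lost without any 1 of DHO 1, DHO 2, DHO 5, WT 1, WT 2, WT 3 and WT 5, at an adjusted p of 0.0525 to 0.102. Cd8a also failed there with quantile normalization (adjusted p = 0.0855) or median-of-ratios scaling (adjusted p = 0.077). It did likewise without the filter on low values (adjusted p = 0.0542) or without HO 2, HO 4 and DHO 1 (adjusted p = 0.0611). Limma-voom with median-of-ratios factors called neither Cd8a (adjusted p = 0.0945) nor Cd3g (adjusted p = 0.0711) in DHO against WT. Cd3g in DHO against HO was lost without HO 2, HO 4 and DHO 1 (adjusted p = 0.105).

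Smooth muscle markers summed to 529 to 1663 FPKM in DHO, 462 to 2286 in HO and 198 to 1515 in WT. Of 9 tested, 4 were higher in HO against WT, such as Des (1.77, SE 0.49), with 0 higher without HO 2, HO 4 and DHO 1, and none passed in DHO against HO. WT 1 and WT 2, which held the least smooth muscle, were also the WT libraries with the lowest C1qa, C1qb, C1qc, Adgre1, Csf1r, Lyz2 and Mrc1. At the low end the other groups did not share this pattern, except that Mrc1 was lowest in DHO 1 and in HO 1. In HO the lowest library for 8 of the 9 genes was HO 5, at a smooth muscle sum of 1422 FPKM, while HO 1 held the least (462). In DHO it was DHO 3 for 7 of the 9, at 915 FPKM, while DHO 1 held the least (529). At the high end, DHO 5 (1663 FPKM) and HO 4 (2286) held the most smooth muscle of their groups. Each was the highest library of its group for 6 of the 9 genes. In WT the most was held by WT 4 (1515), which was highest for 4 of the 9, as was WT 3 (794). Endothelial markers summed to 21.0 to 48.4 FPKM in DHO, 22.7 to 128 in HO and 27.8 to 53.6 in WT, with 3 of 7 higher in HO against WT (1 without HO 2, HO 4 and DHO 1 or with the smooth muscle covariate) and 5 lower in DHO against HO, such as Esam (1.05 in HO against WT and -1.30 in DHO against HO, SE 0.18). Fibroblast markers summed to 92.2 to 221 FPKM in DHO, 78.6 to 244 in HO and 82.4 to 234 in WT. Of 7 tested, Pdpn rose in HO against WT (1.13, SE 0.28), and 2 were lower in DHO against HO. Epithelial markers summed to 7032 to 8629 FPKM in DHO, 6643 to 8178 in HO and 8116 to 9397 in WT, with 1 of 6 higher and 1 lower in HO against WT, and 3 higher and 1 lower in DHO against HO. Lysozyme and Paneth cell markers summed to 2064 to 9070.0 FPKM in DHO, 1309 to 5349 in HO and 3167 to 16363 in WT, with 5 of 6 lower in HO against WT and 4 higher in DHO against HO, such as Ang4 (-3.32 in HO against WT and 2.50 in DHO against HO, SE 0.68).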

How the data were processed

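RNA of whole ileum was sequenced in 15 libraries, and the 9 genes and all lists were chosen with earlier results of these data known. Reads were processed with fastp, HISAT2 and HTSeq against mm10, per the submitters' processing notes, with versions not given in the sources used here. The deposited table gives 1 FPKM value per gene and library, and its unit was read from the values, since the table names none. The deposited FPKM values of 100.00% of the 24836 genes above 0 were whole multiples of a single read's worth, within 0.02 of a read, which gave the library totals and the reads behind each gene.

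Genes that reached 1 FPKM in 5 or more libraries were tested with limma-trend (limma 3.58.1 in R 4.3.3, robust) on log2(FPKM + 1), a scale that understates changes of low genes. A single fit of the 3 group means used all 15 libraries. P-values were adjusted by the Benjamini-Hochberg method over the 11332 genes, with a call at an adjusted p under 0.05. Libraries are numbered in accession order, and these numbers pair nothing. Ratios to Csf1r were compared by exact permutation over libraries (Python 3.11.15, numpy 2.4.6, scipy 1.17.1, pandas 2.3.3), and figures were drawn with matplotlib 3.10.9.

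The genes named were the 9, Lyz1, the 8 most like C1q, and, per list and comparison, up to 3 called and 1 not called with the smallest p. In at least 1 comparison C1ra, C1s1, C4bp, Calr, Csf1, Ctsb, Fcgr4, Fn1, Gas6, Il34, Ly6c2, Spi1 and Traf6 were outside this rule and were chosen after their values were seen, as were genes named for how they reached the filter and the series checks Map3k7, Gata4, Fabp6 and Ms4a1. Alternatives covered the pseudocount, the filter, the scaling, limma-voom on the recovered reads, the libraries in the fit, a smooth muscle covariate, the libraries that stand apart and leaving out each library. List counts without genes that reached the filter through HO libraries were added after seeing the data.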

Additional observations from a re-analysis of the deposited data

Results flagged for a closer look

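Of 54 groups of 5 libraries (the 9 genes, Lyz1 and the ratios to Csf1r), 3 held a library whose gap to the nearest other exceeded 0.71 of the group's range, which chance gives in about 1 in 20 groups. Lyz1 was at 1218 FPKM in HO 3, against 216 to 444 FPKM in the other HO libraries, a gap of 0.773 of the range. The ratio of C1qb to Csf1r was 3.98 in WT 4, against 3.04 to 3.25 in the other WT libraries, a gap of 0.781 of the range. The ratio of C1qc to Csf1r was 4.44 in DHO 3, against 3.48 to 3.63 in the other DHO libraries, a gap of 0.839 of the range.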

How the results depend on the processing

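No paired analysis was possible because the labels give no replicate numbers. Of the 9 genes, 2 were called in HO against WT; the count was 5 with median-of-ratios scaling of FPKM, 5 with limma-voom and median-of-ratios factors, 1 with the smooth muscle covariate (Adgre1, lower, with the calls of Cd68 and Mrc1 lost), 0 without HO 2, HO 4 and DHO 1, and 1 to 5 leaving out single libraries (1 without HO 2, HO 3 or HO 4, and 5 without HO 5). In DHO against HO 6 were called, with 1 without HO 2, HO 4 and DHO 1 and 3 without HO 1, DHO 3 and DHO 4. Of the ratios to Csf1r, 4 passed in HO against WT (2 without HO 2, HO 4 and DHO 1, 5 without HO 1, DHO 3 and DHO 4, and 4 to 5 leaving out single libraries, with 5 without HO 1, HO 5 or WT 4). In DHO against HO 2 passed (0 without either set, where 4 against 3 libraries cannot go below 0.0571, and 2 to 5 leaving out single libraries, the highest without HO 5). In DHO against WT 4 passed (0 without HO 1, DHO 3 and DHO 4, and 2 to 4 leaving out single libraries, the lowest without DHO 2, DHO 3, WT 3 or WT 5).

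Values that changed sign had not passed. Adgre1 in DHO against HO was -0.12 with quantile normalization, -0.20 with median-of-ratios scaling, -0.0026 with limma-voom, -0.29 with limma-voom and median-of-ratios factors, and -0.14 to 0.12 leaving out single libraries. Cd14 in DHO against HO was -0.22, -0.25 and -0.26 under quantile normalization, median-of-ratios scaling and limma-voom with those factors, -0.030 without HO 2, HO 4 and DHO 1, and -0.099 to 0.18 leaving out single libraries. Without HO 2, HO 4 and DHO 1, Cd14 was at -0.044 in DHO against WT and -0.014 in HO against WT, Lyz2 at -0.21 and Lyz2 to Csf1r at -0.33 in HO against WT, and Mrc1 at 0.0025 in DHO against WT. Without HO 1, DHO 3 and DHO 4, Cd14 was at -0.023 in HO against WT, Lyz2 at 0.33 in DHO against WT and Mrc1 to Csf1r at -0.74 in DHO against HO. Leaving out single libraries gave -0.044 to 0.19 for Cd14 in DHO against WT, -0.064 to 0.15 for Cd14 in HO against WT, -0.20 to 0.0025 for Mrc1 in DHO against WT, and, in DHO against HO, -0.032 to 0.55 for Lyz2 to Csf1r and -0.26 to 0.24 for Mrc1 to Csf1r. With the smooth muscle covariate Csf1r was at -0.17 and Lyz2 at -0.090 in HO against WT. The cause of these shifts was not tested. Over all genes, DHO against WT had 27 calls, and 186 with only these groups in the fit. Low read numbers limit Cd68 and Adgre1 most.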
